A study of Rattus norvegicus with 12 samples.

Results

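The genes described here carry glucocorticoid signalling from the receptors, through the enzymes that set the amount of active hormone inside a cell, to genes that the hormone switches on. They are 9 of the 14217 genes named singly on the array: Nr3c1, Nr3c2, Hsd11b1, Hsd11b2, Tsc22d3, Fkbp5, Sgk1, Tat and Tdo2. They were chosen by symbol, and every probe set whose platform annotation gives exactly 1 symbol, that of a listed gene, was taken. This gave 11 probe sets of the 31099 in the table, with a pair each for Nr3c1 and Fkbp5 and a single probe set for every other gene.

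Corticosterone, the main glucocorticoid of the rat, is released by the adrenal cortex in a daily rhythm and under stress. It binds the glucocorticoid receptor Nr3c1, which leaves its chaperone complex, enters the nucleus and binds response elements of its target genes. The mineralocorticoid receptor Nr3c2 binds corticosterone as well as aldosterone. In the aldosterone-sensitive distal nephron, Hsd11b2 inactivates corticosterone, while in liver Hsd11b1 regenerates it from its inactive form.

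The tissues were liver and kidney cortex, taken from male rats called Wistar-derived and also F-344 in the labels, that were 7 to 9 weeks old and weighed 190 to 240 g. The treated rats received trichloroethylene (TCE), a chlorinated solvent, by mouth at 16 mg/kg per day for 3 days in corn oil at 5 ml/kg, and the control rats received corn oil alone. Each rat was kept alone in a metabolic cage after dosing, and killing followed the final dose by 24 h. There were 3 rats in each arm and both tissues were taken, which gave 3 arrays each of TCE liver, control liver, TCE kidney and control kidney, 12 in all. The hour of killing and plasma corticosterone were not used here.

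Values are log2 units, and a difference is TCE minus control unless said otherwise. Array medians were 3.51 to 3.54 in liver and 3.88 to 3.96 in kidney, the lowest value of the table was 2.17, and arrays of 1 group correlated at 0.993 to 0.997. The tissues carried their labels: the hepatocyte markers summed to 18.25 to 18.26 in TCE livers and 18.25 to 18.29 in control livers (log2 of the summed linear levels), and the proximal tubule markers to 17.10 to 17.21 in TCE kidneys and 17.10 to 17.14 in control kidneys. Of the 7 adrenal cortex markers on the array, 4 (Cyp11b1, Cyp11a1, Star and Nr5a1) lay within 0.5 of the lowest value on all kidney arrays. The other 3 read higher: Mrap at 8.80 to 9.42 in TCE and 8.80 to 9.45 in control kidneys, Hsd3b1 up to 3.30 and 4.23, and Cyp21a1 up to 2.70 and 3.36, and the list summed to 8.89 to 9.49 in TCE and 8.92 to 9.53 in control kidneys. Precision is limited by the 3 arrays per group, and in bulk tissue fewer cells of a type and less RNA per cell cannot be told apart.

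**Figure D1:**
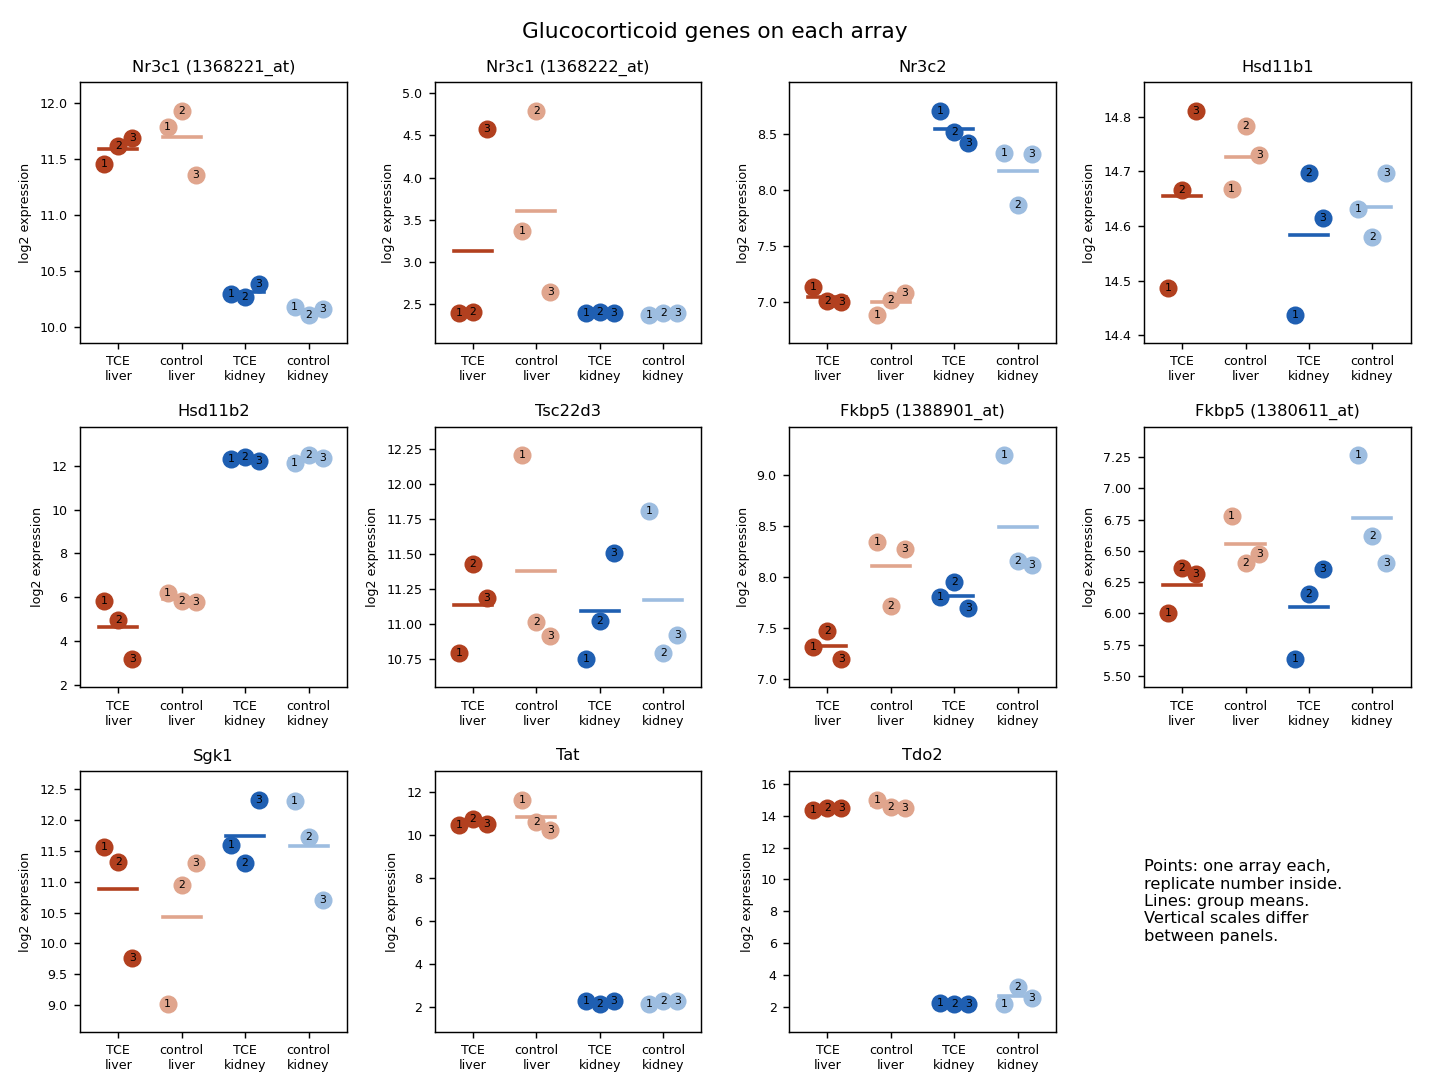
Log2 expression (vertical axes, scaled per panel) of the 11 probe sets in TCE livers, control livers, TCE kidneys and control kidneys, with 1 point per array, its replicate number inside and a line at the group mean. Both Fkbp5 panels show the TCE arrays below the control arrays within each tissue, and control replicate 1 stands above the other control arrays for Tsc22d3 and Fkbp5 in both tissues.

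None of the 11 probe sets passed an adjusted p of 0.05 between TCE and control livers in limma's test over all 18610 probe sets (0% called), and none of the 8 tested in kidney (0% called of 18609). The gene whose TCE and control arrays lay apart in both tissues, on both its probe sets, was Fkbp5, and it was lower after TCE. Groups lay apart for 2 of the 11 member probe sets in liver, near the 19.2% of all tested. In kidney they lay apart for 4 of the 8 tested, against 19.5% of all tested. How many of all probe sets lay apart in both tissues was not counted. Unadjusted p fell under 0.05 for 1 member probe set in liver (13.8% of all tested) and 1 in kidney (14.5%). The median log2 difference was -0.24 over the 11 member probe sets in liver (-0.10 without liver control replicate 1), against 0.02 over all tested, and -0.03 over the 8 tested in kidney, against 0.00 over all. Tat, Tdo2 and the dimmer Nr3c1 probe set were below the filter in kidney and were not tested there.

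Fkbp5 encodes a cochaperone that lowers the hormone affinity of the glucocorticoid receptor and is itself induced by glucocorticoid, forming a feedback loop. Its brighter probe set (1388901_at) read 7.32, 7.47 and 7.19 log2 units in TCE livers, against 8.33, 7.71 and 8.27 in control livers. The highest TCE liver was thus below the lowest control liver. The difference was -0.78 ± 0.19 log2 units (SE, 3 against 3 arrays), or 1.72-fold lower, with an unadjusted p of 0.00889 and an adjusted p of 0.229 in limma. In kidney the same probe set read 7.80, 7.95 and 7.70 after TCE, against 9.19, 8.16 and 8.12 in controls. The groups did not overlap here either, and control kidney replicate 1 stood 1.06 above the mean of the other control kidneys. The difference was -0.67 ± 0.31 (SE), with an adjusted p of 0.402 in limma; without kidney control replicate 1 it was -0.32 ± 0.09.

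The second Fkbp5 probe set (1380611_at) pointed the same way. It read 6.001, 6.36 and 6.31 in TCE livers, against 6.78, 6.40 and 6.47 in control livers, a difference of -0.33 ± 0.15 (SE; limma adjusted p = 0.413). The groups did not overlap, but the nearest arrays read 6.36 in TCE and 6.40 in control livers. In kidney it read 5.63, 6.15 and 6.36 after TCE, against 7.27, 6.62 and 6.40 in controls, a difference of -0.71 ± 0.30 (limma adjusted p = 0.358). Without kidney control replicate 1 it was -0.46, and without liver control replicate 1 the liver value was -0.21. Of the 11 member probe sets in liver, 2 had groups that did not overlap, both of Fkbp5 and lower, against 19.2% of all tested probe sets (10.4% higher and 8.8% lower). Of the 8 tested in kidney, 4 did not overlap, 2 higher and 2 lower, against 19.5% of all tested (10.7% higher and 8.8% lower).

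In liver a measure of RNA quality and the erythroid and stellate cell markers differed between the same groups as Fkbp5. The 3' signal of the Gapdh control exceeded its 5' signal by 1.49 ± 0.25 log2 units in TCE livers and 0.81 ± 0.04 in controls (SD, n = 3 each; two-sided exact permutation p = 0.1, the smallest that 3 against 3 allows). With that Gapdh gap as a covariate the liver difference was -1.04 ± 0.52 for the brighter Fkbp5 probe set and 0.03 ± 0.37 for the second. Of the erythroid markers, 3 were tested in liver and all 3 were lower in TCE livers; the list summed to 13.42 to 14.01 in TCE and 14.29 to 14.65 in control livers, with Ahsp near the lowest value throughout. The stellate, mesangial and fibroblast markers summed to 12.57 to 12.86 in TCE and 12.39 to 12.46 in control livers, with 6 of 8 higher, a median of 0.31 and none near the lowest value on all arrays of a group. The part of these cells in the Fkbp5 values was not tested. In kidney the Gapdh gap was 0.65 ± 0.19 after TCE and 0.97 ± 0.11 in controls (SD, n = 3 each; exact permutation p = 0.2), and the covariate fit gave -0.35 and -0.64 for the probe sets. The corresponding Actb gap separated the kidneys, at 4.20 to 4.36 after TCE and 4.40 to 4.56 in controls (exact permutation p = 0.1). In liver the Actb gap overlapped, at 5.09 to 5.67 after TCE and 4.31 to 5.24 in controls (exact permutation p = 0.3). The part of the Actb gap in the Fkbp5 values was not tested.

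**Figure D2:**
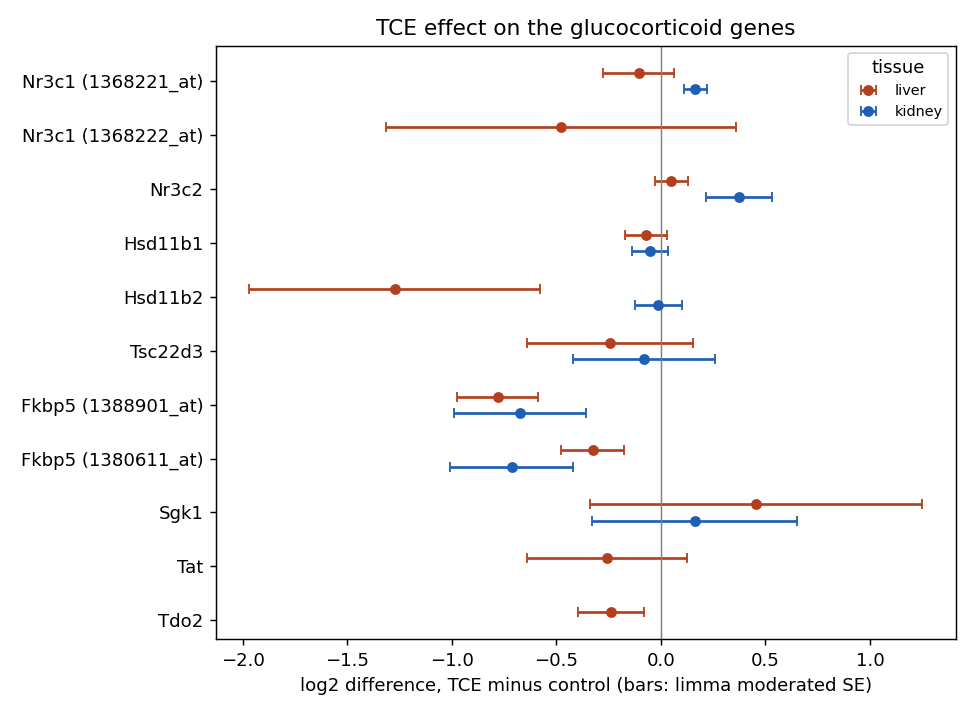
Log2 difference, TCE minus control, of each member probe set (horizontal axis) in liver and kidney, with limma's moderated SE as bars. Both Fkbp5 probe sets lie left of 0 in both tissues, at -0.78 and -0.33 in liver and -0.67 and -0.71 in kidney, while Tsc22d3, Tat and Sgk1 have SE bars that cross 0; probe sets below the filter in kidney have no kidney point.

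Neither receptor passed the test for TCE in either tissue. Nr3c1 on its brighter probe set (1368221_at) read 11.46, 11.62 and 11.69 in TCE livers, against 11.79, 11.94 and 11.36 in control livers. The groups overlapped, with a difference of -0.11 ± 0.17 (SE; limma adjusted p = 0.806) that turned to 0.01 without liver control replicate 2. In kidney it read 10.29, 10.26 and 10.38 after TCE, against 10.18, 10.11 and 10.16 in controls. All TCE kidneys were above all control kidneys, by 0.17 ± 0.06 (SE), or 1.12-fold (limma unadjusted p = 0.0298, adjusted p = 0.298). The other Nr3c1 probe set (1368222_at) was dim: it lay at 2.38 to 2.41 in every kidney and reached 4.57 in 1 TCE liver and 4.79 in 1 control liver.

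Nr3c2, the mineralocorticoid receptor, was also slightly higher in TCE kidneys, at 8.70, 8.51 and 8.42 against 8.33, 7.86 and 8.32 in control kidneys. The groups did not overlap, and the difference was 0.37 ± 0.16 (SE), or 1.30-fold, with a limma adjusted p of 0.367; without kidney control replicate 2 it was 0.22. In liver it read 7.13, 7.01 and 7.00 after TCE, against 6.89, 7.02 and 7.08 in controls, a difference of 0.05 ± 0.08 (limma adjusted p = 0.804) that was under 0.01 in size and negative without liver control replicate 1. The difference between the liver and kidney effects of Nr3c2 was -0.32 ± 0.19 (limma adjusted p = 0.404).

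The podocyte markers stood higher in the same TCE kidneys: all 6 measured had a positive difference, 0 of them past the adjusted threshold in limma, and they summed to 11.14 to 11.49 in TCE kidneys and 10.70 to 10.89 in control kidneys, none of them near the lowest value. Intercalated cell markers, of the distal nephron and collecting duct, were higher for 4 of 4, with a median of 0.26, and summed to 13.05 to 13.22 in TCE kidneys and 12.90 to 12.95 in control kidneys, none near the lowest value. Of the 5 macrophage markers measured 4 were higher, and the list summed to 7.80 to 8.18 in TCE and 7.59 to 7.77 in control kidneys, with Cd163 and Cd5l near the lowest value. The principal and connecting tubule cell markers mark the cells where Nr3c2 and Hsd11b2 act together, and the list includes Hsd11b2 itself. The list summed to 14.50 to 14.66 in TCE and 14.51 to 14.62 in control kidneys. The part of these cells in the receptor values was not tested.

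Neither hydroxysteroid dehydrogenase passed the test for TCE. Hsd11b1, which regenerates active corticosterone, read 14.49, 14.66 and 14.81 in TCE livers, against 14.67, 14.78 and 14.73 in control livers. It read 14.44, 14.70 and 14.61 in TCE kidneys, against 14.63, 14.58 and 14.70 in control kidneys. The groups overlapped in both tissues, with differences of -0.07 ± 0.10 in liver and -0.05 ± 0.08 in kidney (SE; limma adjusted p = 0.775 and 0.799), which turned to 0.01 without liver TCE replicate 1 and 0.02 without kidney TCE replicate 1.

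Hsd11b2, which inactivates corticosterone, read 12.33, 12.41 and 12.20 in TCE kidneys, against 12.14, 12.50 and 12.35 in control kidneys. The arrays overlapped and the difference was -0.01 ± 0.11 (SE; limma adjusted p = 0.976), of either sign with single arrays left out (-0.11 to 0.07). In liver, where it is dim, it read 5.84, 4.96 and 3.17 after TCE, against 6.20, 5.82 and 5.78 in controls. The TCE livers spread over 2.67 log2 units and the control livers over 0.42, so the difference of -1.27 ± 0.69 (limma adjusted p = 0.467) rests mainly on TCE liver replicate 3.

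Tsc22d3 encodes GILZ, a leucine zipper protein that glucocorticoid induces and that restrains inflammatory transcription factors. It read 10.79, 11.43 and 11.18 in TCE livers, against 12.20, 11.01 and 10.91 in control livers, and 10.75, 11.02 and 11.51 in TCE kidneys, against 11.80, 10.79 and 10.92 in control kidneys. In each tissue the highest of the 6 arrays was control replicate 1, and the other control arrays lay within the TCE range. The differences were -0.24 ± 0.40 in liver and -0.08 ± 0.34 in kidney (SE; limma adjusted p = 0.811 and 0.936). They turned to 0.17 and 0.24 without control replicate 1 of the tissue, and the kidney value to 0.09 without kidney TCE replicate 1.

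Sgk1 encodes a kinase that corticosteroids induce through both receptors and that keeps the epithelial sodium channel at the cell surface. Its arrays of 1 group lay far apart. It read 11.57, 11.32 and 9.76 in TCE livers, against 9.02, 10.95 and 11.31 in control livers, a 4.90-fold range within the controls. In kidney it read 11.60, 11.30 and 12.34 after TCE, against 12.32, 11.73 and 10.70 in controls. Differences were 0.45 ± 0.79 in liver and 0.16 ± 0.49 in kidney (SE; limma adjusted p = 0.825 and 0.906). The liver value was -0.25 without liver control replicate 1, and the kidney value -0.13 without kidney TCE replicate 3 and -0.28 without kidney control replicate 3. Control liver replicate 1, the highest array for Tsc22d3, was the lowest for Sgk1.

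Tat and Tdo2 are liver enzymes of amino acid breakdown that glucocorticoid induces: Tat, tyrosine aminotransferase, starts tyrosine breakdown, and Tdo2 starts the kynurenine route of tryptophan. Tat read 10.46, 10.73 and 10.48 in TCE livers, against 11.64, 10.58 and 10.22 in control livers. Control liver replicate 1 stood 1.25 above the mean of the other control livers, or 2.37-fold, and the TCE livers lay between the controls. The difference of -0.26 ± 0.38 (SE; limma adjusted p = 0.79) turned to 0.16 without that array. Tdo2 read 14.36, 14.51 and 14.48 in TCE livers, against 15.02, 14.54 and 14.50 in control livers. Its difference was -0.24 ± 0.16 (limma adjusted p = 0.55), and -0.07 ± 0.07 without liver control replicate 1.

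In kidney both were at or near the lowest value. Tat read 2.17 to 2.27 on all 6 kidney arrays. Tdo2 read 2.20 to 2.22 in TCE kidneys, against 2.21, 3.24 and 2.53 in control kidneys. Albumin, an abundant hepatocyte transcript, varied over the same arrays, with Alb at 10.96, 4.36 and 6.31 in TCE kidneys, against 9.89, 12.80 and 7.84 in control kidneys. Control kidney replicate 2 was the highest for both Alb and Tdo2, but the other arrays did not keep the same order. TCE kidney replicate 1 had Alb at 10.96 and Tdo2 at 2.22. Control kidney replicate 3 had Alb at 7.84 and Tdo2 at 2.53. Of the 7 hepatocyte markers on the array 6 were measured in kidney, of which 5 were lower and 1 higher after TCE, with a median difference of -1.45. Arg1 was lower without overlap, at -1.40 ± 0.49 (SE; limma adjusted p = 0.308), while Cyp2e1, the brightest of the list in most kidneys, was higher at 0.82 ± 0.20 (limma adjusted p = 0.239). The list summed to 12.52 to 13.05 in TCE kidneys and 11.56 to 13.57 in control kidneys, with Apoa1 near the lowest value on all 6. In most kidneys these sums rest mainly on Cyp2e1, so they do not speak for the markers that were lower. The part of liver RNA in the kidney values of Tdo2 was not tested.

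No member probe set was called for a difference of the treatment effect between liver and kidney. Tat, Tdo2 and the dimmer Nr3c1 probe set passed the filter of this fit only through their liver values. They lay at or near the lowest value in kidney, so the fit could not show a kidney effect for them. Of the 11 probe sets tested for the difference of effects over all 12 arrays, 0 passed in limma (1.06% called of 18609) and 0 had an unadjusted p under 0.05 (17.7% of all tested). The smallest adjusted p was 0.397, for Hsd11b2. For Fkbp5 the difference, liver minus kidney, was -0.11 ± 0.38 on the brighter probe set and 0.39 ± 0.34 on the second (limma adjusted p = 0.917 and 0.598).

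The clearest contrast among these genes lay between the tissues. Between control liver and control kidney 5 of the 11 probe sets passed limma's test, 3 higher and 2 lower in liver (61.9% called of 18609 over both directions, 26.8% higher and 35.1% lower). Tat, which is among the 5, and the dimmer Nr3c1 probe set passed the filter of this fit only through their liver values. Their control kidneys averaged 2.23 and 2.39, below the filter at 2.55. Groups did not overlap for 6 of the 11, against 71.2% of all tested (31% higher and 40.2% lower); the further one was the dimmer Nr3c1 probe set, at 1.21 ± 0.54 (SE; limma adjusted p = 0.101), which passed after median centring (1.62, adjusted p = 0.0302) and without liver control replicate 3 (1.69). Nr3c1 was higher in liver, averaging on its brighter probe set 11.69 ± 0.30 in control livers and 10.15 ± 0.04 in control kidneys (SD, n = 3 each). This was a log2 difference of 1.55 ± 0.16 (SE), or 2.92-fold, with a limma adjusted p of 0.000437. Nr3c2 went the other way, at 7.00 ± 0.10 in control livers and 8.17 ± 0.27 in control kidneys (SD), a difference of -1.17 ± 0.15 (SE; limma adjusted p = 0.00113).

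Hsd11b2 followed the mineralocorticoid receptor with a much larger step: 5.93 ± 0.23 in control livers and 12.33 ± 0.18 in control kidneys (SD, n = 3 each). The difference was -6.40 ± 0.16 (SE), or 84.3-fold lower in liver (limma adjusted p = 1.58e-06). Hsd11b1 was bright in both, at 14.73 ± 0.06 in control livers and 14.64 ± 0.06 in control kidneys (SD), and its difference of 0.09 ± 0.07 did not pass in limma (adjusted p = 0.301). That value depended on scaling: centring each array on its median, which moved the median of all probe sets by 0.41, gave 0.50 with an adjusted p of 0.00215, and quantile normalization, which moved it by 0.16, gave -0.12.

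Tat and Tdo2 were far higher in liver. The difference, control liver minus control kidney, was 8.58 ± 0.37 for Tat (SE), at least 382-fold, and 12.03 ± 0.30 for Tdo2, at least 4184-fold, since the kidney values lie at or near the lowest value. Both passed limma's test, with adjusted p of 1.33e-05 and 1.79e-06, but Tat passed the filter of this fit only through its liver values. Fkbp5, Tsc22d3 and Sgk1 did not pass between the tissues: the differences were -0.38 ± 0.35 and -0.21 ± 0.25 for the Fkbp5 probe sets, 0.20 ± 0.45 for Tsc22d3 and -1.16 ± 0.73 for Sgk1, with adjusted p from 0.216 to 0.711. Without both control arrays numbered 1 the Sgk1 value was -0.08, and without liver control replicate 1 that of Tsc22d3 was -0.21. In the TCE arrays the tissues stood in the same order for every called gene, with liver minus kidney at 1.28 for Nr3c1, -1.497 for Nr3c2, -7.66 for Hsd11b2, 8.32 for Tat and 12.24 for Tdo2.

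**Figure D3:**
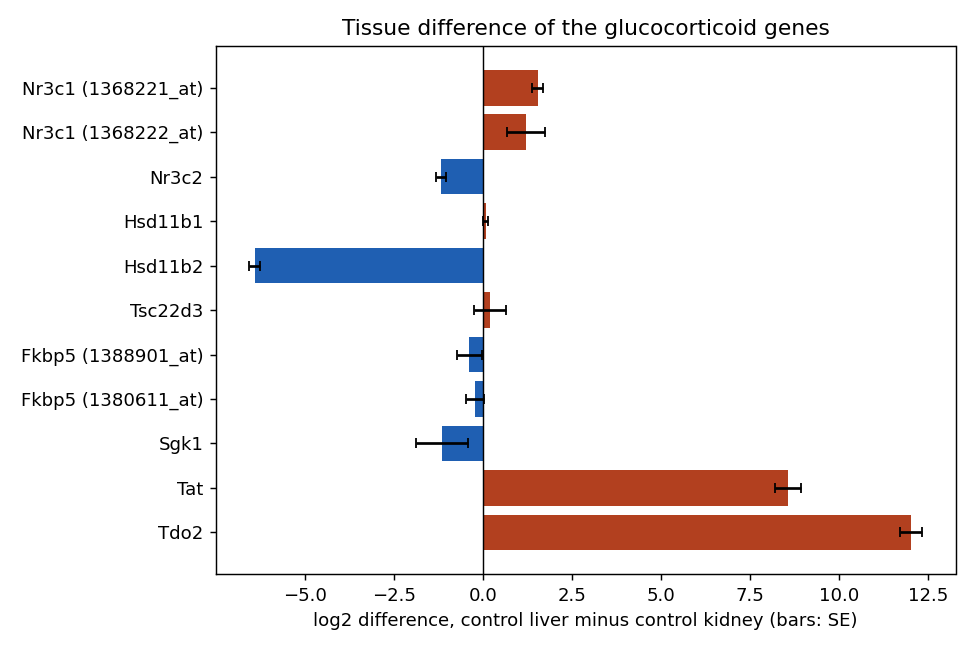
Log2 difference, control liver minus control kidney, of each member probe set, as bars from 0, red where higher in liver and blue where lower, with limma's moderated SE. Tat (8.58) and Tdo2 (12.03) extend to the liver side and Hsd11b2 (-6.40) to the kidney side, while Hsd11b1, Tsc22d3 and both Fkbp5 probe sets stay near 0.

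The DNA just before the start sites was compared between genes read in both tissues and the liver enzymes. RefSeq promoter windows on GRCr8 were matched for 6 of the 9 genes, 11 windows in all, and the 250 bases before each start were searched. The windows of Fkbp5 and Nr3c1 are shown beside those of Tat and Tdo2, with each CG dinucleotide in capitals.
Fkbp5 (chr20:6543556-6543805, minus strand): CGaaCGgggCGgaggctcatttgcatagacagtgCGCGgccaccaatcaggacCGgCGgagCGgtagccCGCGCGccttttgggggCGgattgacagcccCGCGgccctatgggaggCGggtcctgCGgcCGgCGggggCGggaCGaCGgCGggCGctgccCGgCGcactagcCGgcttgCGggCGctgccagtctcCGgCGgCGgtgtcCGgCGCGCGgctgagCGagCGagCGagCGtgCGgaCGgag
Nr3c1 (chr18:31613440-31613689, minus strand): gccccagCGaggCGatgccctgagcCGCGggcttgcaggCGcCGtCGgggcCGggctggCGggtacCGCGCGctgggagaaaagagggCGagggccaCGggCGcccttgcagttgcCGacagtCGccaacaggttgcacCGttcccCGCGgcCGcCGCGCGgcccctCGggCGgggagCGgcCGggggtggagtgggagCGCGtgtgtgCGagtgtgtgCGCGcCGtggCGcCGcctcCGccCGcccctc
Tat (chr19:54856354-54856603, plus strand): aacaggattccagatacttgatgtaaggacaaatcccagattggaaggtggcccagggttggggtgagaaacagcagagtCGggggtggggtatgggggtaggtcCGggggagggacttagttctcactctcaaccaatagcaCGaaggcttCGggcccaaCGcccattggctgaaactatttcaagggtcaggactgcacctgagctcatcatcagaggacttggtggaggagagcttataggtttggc
Tdo2 (chr2:169585587-169585836, minus strand): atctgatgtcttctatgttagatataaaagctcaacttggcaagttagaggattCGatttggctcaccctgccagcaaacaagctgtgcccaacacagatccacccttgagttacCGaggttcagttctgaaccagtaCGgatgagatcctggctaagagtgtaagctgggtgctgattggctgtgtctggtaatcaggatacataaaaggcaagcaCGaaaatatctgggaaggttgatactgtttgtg
The Fkbp5 window holds 41 CG dinucleotides and this Nr3c1 window 38, against 5 in the Tat window and 4 in the Tdo2 window. The median over all 33469 rat windows was 5, and 99.2% of them hold no more than Fkbp5's. Windows of 1 gene differed: the other Nr3c1 window holds 20, those of Tsc22d3 hold 8, 27 and 4, and those of Sgk1 3, 10 and 22. The receptor recognition hexamer AGAACA, searched on both strands, was in 0 of the 11 member windows and in 17.5% of all windows. The spaced element, GNACA and TGTNC parted by any 3 bases, was in 0 and in 0.373%, the E-box CACGTG of clock activators in 0 and in 5.59%, and the D-box TTATGTAA, which Dbp binds, in 0 and in 0.828%. These counts say only that the letters are not in these windows.

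Control liver replicate 1 was the highest of the 6 liver arrays for 6 of the 11 member probe sets, against 18.1% of all tested probe sets: Hsd11b2, Tsc22d3, both Fkbp5 probe sets, Tat and Tdo2. It was also the highest for 12 of 21 hepatic glucocorticoid-responsive genes and for 9 of 23 genes widely induced by glucocorticoid. In kidney, control replicate 1 was the highest for 3 of the 8 tested member probe sets, against 18.7% of all tested, namely Tsc22d3 and both of Fkbp5. It was the highest for 5 of 24 widely induced, 2 of 19 hepatic and 8 of 16 mineralocorticoid response and sodium transport genes in kidney. TCE kidney replicate 3 was the highest for 10 of the 24 widely induced genes, against 19.1% of all tested probe sets. The labels do not say whether liver and kidney replicate 1 come from the same rat, and these counts were chosen after the values were seen.

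Further genes of the pathway were read from lists of receptor partners and targets, with the brightest probe set for each gene. In no list did a gene pass limma's test over all probe sets in either tissue. Of 11 receptor chaperones and cochaperones, 4 were higher and 7 lower in TCE livers, and 7 higher and 4 lower in TCE kidneys, with medians of -0.14 and 0.06. Dnajb1, an Hsp40 cochaperone, averaged 10.61 ± 0.22 in TCE livers, against 10.05 ± 0.06 in controls (SD, n = 3 each), a difference of 0.55 ± 0.13 (SE; limma adjusted p = 0.211). In kidney its difference was 0.25 ± 0.07 (limma adjusted p = 0.243), and the groups were apart in both tissues. St13, which links Hsp70 to Hsp90 in the receptor complex, was apart in opposite directions, at -0.20 ± 0.09 in liver and 0.27 ± 0.10 in kidney.

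Of 9 measured nuclear receptor coregulators, 8 were higher in TCE livers (median 0.22, against 0.02 over all probe sets) and 7 were lower in TCE kidneys (median -0.14). In liver the acetyltransferases Crebbp (0.33 ± 0.08 SE) and Ep300 (0.54 ± 0.13) and the steroid receptor coactivator Ncoa1 (0.27 ± 0.08) had TCE values above all control values, with limma adjusted p of 0.224, 0.23 and 0.266. The exception in liver was Ppargc1a, a fasting-induced coactivator of gluconeogenic genes, at -1.88 ± 0.96. In kidney Smarca4, the ATPase of the chromatin remodeller that the receptor recruits, averaged 9.56 ± 0.15 after TCE and 10.16 ± 0.11 in controls (SD, n = 3 each), a difference of -0.59 ± 0.10 (limma adjusted p = 0.181). The other probe sets of Smarca4 gave only -0.093 and -0.031 in kidney, and those of Crebbp gave values of both signs in liver. The other Ep300 probe set gave 0 in liver, and those of Ncoa1 gave 0 and 0.0142.

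Of 8 genes of hormone supply, binding and clearance in liver 4 were higher and 4 lower, and of 6 in kidney 1 was higher and 5 lower (3 and 3 without kidney control replicate 1). Serpina6, the corticosteroid-binding globulin that liver secretes, averaged 13.97 ± 0.10 in TCE livers, against 13.80 ± 0.03 in controls (SD, n = 3 each), a difference of 0.17 ± 0.07 (limma adjusted p = 0.396). H6pd, which supplies NADPH to Hsd11b1 in the endoplasmic reticulum, had -0.32 ± 0.19 in liver and 0.16 ± 0.13 in kidney, with overlapping groups in both.

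Among genes widely induced by glucocorticoid, 12 of 23 were higher and 11 lower in TCE livers, and 14 of 24 were higher and 10 lower in TCE kidneys. Mt1, a metal-binding metallothionein, averaged 6.80 ± 0.42 in TCE livers, against 5.30 ± 0.43 in controls (SD, n = 3 each), a difference of 1.497 ± 0.31 (limma adjusted p = 0.179). Lower in TCE livers without overlap were Pdk4, which restrains pyruvate oxidation in fasting (-0.86 ± 0.24 SE), Sesn1 (-1.10 ± 0.38) and the repressor Nfil3 (-1.07 ± 0.30), with limma adjusted p of 0.256 to 0.311. Sesn1 had -0.70 without liver control replicate 1 and -0.126 on its other probe set. In kidney Nfil3 had -0.99 ± 0.14 (limma adjusted p = 0.178), with TCE values near the dim end of the scale at 3.73 ± 0.26 against 4.72 ± 0.02 in controls (SD). Classical acute targets were spread widely, with Dusp1 at -0.12 ± 1.20 and Per1 at 1.16 ± 0.65 in liver.

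**Figure D4:**
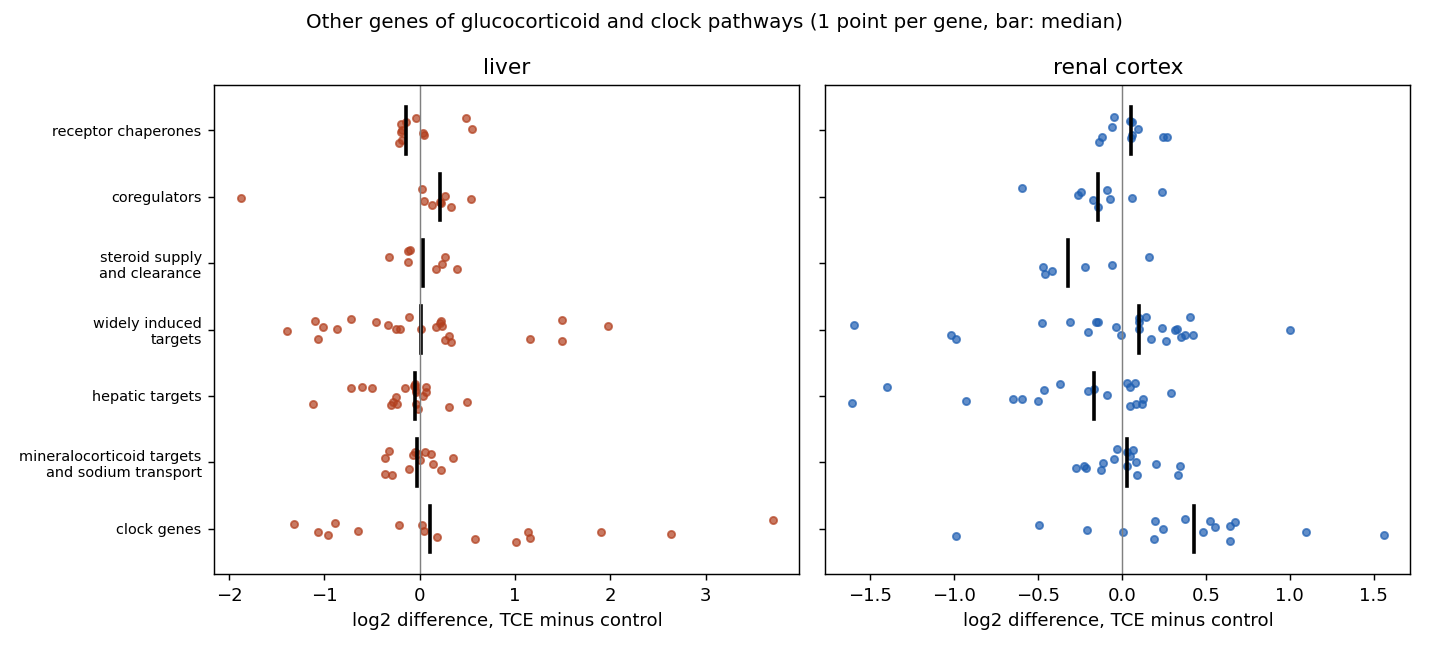
Log2 difference, TCE minus control, of the measured genes in each pathway list (1 point per gene, black bar at the median), in liver on the left and renal cortex on the right, whose horizontal scales differ. The widely induced targets scatter on both sides of 0 in both tissues (medians 0.02 and 0.10), and the clock genes reach furthest in liver, up to 3.71 for Dbp.

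Hepatic glucocorticoid-responsive genes of amino acid, glucose and plasma protein metabolism were mostly lower in TCE livers, 16 of 21, with a median of only -0.05. Without liver control replicate 1 the split was 11 higher and 10 lower. Asl, of the urea cycle, had 0.49 ± 0.08 (SE, limma adjusted p = 0.127), and 0.118 on its other probe set. Afmid, which follows Tdo2 in the kynurenine route, averaged 11.32 ± 0.14 in TCE livers, against 11.82 ± 0.11 in controls (SD, n = 3 each), a difference of -0.50 ± 0.10 (limma adjusted p = 0.182). In kidney it had -0.37 ± 0.10 (limma adjusted p = 0.241), again without overlap. The other Afmid probe sets gave -0.404 and -0.433 in liver, but only -0.12 and -0.0599 in kidney. Kynu, a later enzyme of that route, had -0.30 ± 0.13 in liver and -0.20 without liver control replicate 1. Kmo and Haao, of the same route, had -0.05 ± 0.13 and 0.04 ± 0.07 in liver.

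In kidney 11 of 19 of these genes were lower and 8 higher. Sds, serine dehydratase (-0.93 ± 0.19 SE), Agt, angiotensinogen (-0.65 ± 0.17), and Igfbp1 (-0.60 ± 0.16) were lower in every TCE kidney than in any control kidney, with limma adjusted p of 0.204 to 0.244. Of 6 hepatocyte markers 5 had a lower mean in TCE kidneys, with a median difference of -1.45. Only 1 of them was lower without overlap, and Cyp2e1 was higher without overlap. The list sums overlapped, at 12.52 to 13.05 in TCE and 11.56 to 13.57 in control kidneys. In most kidneys these sums rest mainly on Cyp2e1: TCE kidney replicate 2 had Cyp2e1 at 12.50, Alb at 4.36 and a sum of 12.52. Their overlap therefore does not speak for the markers that were lower. The part of liver RNA in the Sds, Agt and Igfbp1 values was not tested.

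Of 16 measured kidney genes of mineralocorticoid response and sodium transport, 9 were higher and 7 lower, with a median of 0.03. Scnn1g, the gamma subunit of the epithelial sodium channel, averaged 8.66 ± 0.12 in TCE kidneys and 8.31 ± 0.14 in control kidneys (SD, n = 3 each), a difference of 0.35 ± 0.10 (limma adjusted p = 0.262). Nedd4l, the ubiquitin ligase that removes the channel and that Sgk1 inhibits, had -0.23 ± 0.07 (limma adjusted p = 0.274). Both were apart between the groups, while Scnn1a (0.03 ± 0.24) and Scnn1b (-0.04 ± 0.13) were not separated.

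The clock genes, whose peripheral rhythms glucocorticoid can set, gave the smallest limma adjusted p of the lists in each tissue. Dbp, a clock output factor, had 3.71 ± 0.29 in liver and 1.56 ± 0.11 in kidney (SE; limma adjusted p = 0.0801 and 0.158). In liver 10 of 16 clock genes were higher (8 without liver control replicate 1) and 10 of the 16 had groups apart, against 19.2% of all tested probe sets; in kidney 13 of 16 were higher and 9 were apart, against 19.5%. Nr1d2, a repressor of Bmal1, was higher in both tissues without overlap, at 1.01 ± 0.13 and 0.64 ± 0.11 (SE; limma adjusted p = 0.111 and 0.185).

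The genes most like each member over the 12 arrays were found from each array's deviation from its tissue mean, among 14126 probe sets of other genes. The highest correlations per member reached 0.877 to 0.963, a description over arrays that share treatment and rats. For Fkbp5 the closest were Elk4 (r = 0.921), Adam15 (0.903) and Mrps23 (0.901). The TCE differences of Elk4 and Adam15 were -0.41 and -0.34 in liver and -0.31 and -0.26 in kidney, and those of Mrps23 were -0.10 and -0.07. For Tsc22d3 they were Csnk2a2 (0.962), Zfp84 (0.932) and Fyco1 (0.909). For Tat they were Hadha (0.963), Ip6k2 (0.956) and Eif4ebp3 (0.954), and for Nr3c2 Vldlr (0.922), Agfg1 (0.896) and Ubr3 (0.884). Tat lay at 2.17 to 2.27 on all kidney arrays, so its correlations rest mainly on the liver arrays. There control replicate 1 read 11.64 and the other livers 10.22 to 10.73.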

How the data were processed

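The table the authors deposited holds log2 values, a scale read here from their range, of 31099 probe sets on 12 GeneChip rat arrays. Per the submitters' processing notes the tools were affy and limma; for background correction, normalization and summary of probe sets the method is not stated. Arrays were grouped by tissue and by case or control in the titles, where case was taken as TCE.

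Differences were tested with lmFit and eBayes of limma 3.58.1, under R 4.3.3 (two-sided, Benjamini-Hochberg over all probe sets of a fit, threshold 0.05) on the deposited values, keeping probe sets whose mean in the fitted arrays lay above percentile 40. The 57 array controls were left out. TCE was tested against control within each tissue (6 arrays), the difference of these effects over all 12 arrays taken as independent, and control liver against control kidney. SE is limma's moderated standard error. The fit was tested on simulated data. Nothing in the labels says more than that the 3 samples of a group came from 3 rats.

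Gene names came from GEO's platform annotation: 20826 had 1 symbol, 436 several and 9780 none, and all 11 gene IDs of the members were in RefSeq's rat table. All probe sets of the members were named. Of each pathway list up to 4 genes with the smallest p per tissue were named by rule. Ppargc1a, Dusp1, Per1, Kmo, Haao, Scnn1a, Scnn1b, Alb and the other single cell type markers were named after their values were seen. Members and lists were chosen with earlier results of these data known. Alternatives were other filters, 1 probe set per gene, quantile normalization, median centring, trend and robust variances, all 12 arrays in 1 fit, a replicate block, the Gapdh gap as a covariate, a threshold of 0.1 and leaving out each array. Leaving out both control arrays numbered 1 was chosen after seeing the data.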

Additional observations from a re-analysis of the deposited data

Results flagged for a closer look

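No member probe set met a rule for a closer look, and groups of 3 arrays were not tested for outliers. Among the pathway genes named, 3 had TCE effects that differed between liver and kidney (adjusted p under 0.05 in limma, all 12 arrays). Of all 18609 probe sets tested 198 passed (1.06%). The genes looked at were those named for the smallest p of TCE against control in these same arrays. A count among them therefore cannot be set against that share. The difference, liver minus kidney, was 0.82 ± 0.16 log2 units (SE) for Smarca4 (adjusted p = 0.0421; effects of 0.22 in liver and -0.59 in kidney), 2.14 ± 0.32 for Dbp (0.0189; 3.71 and 1.56) and 2.11 ± 0.25 for Per3 (0.0126; 2.64 and 0.52). With the replicate block, or with the Gapdh covariate, 0 probe sets passed for this contrast, so none of these 3 calls held there, and the fit takes the 12 arrays of 6 rats as independent. The other probe sets of Smarca4 gave 0.0798 and -0.0911 in liver and -0.0931 and -0.0311 in kidney. The other Per3 probe set gave 0 in liver, against 2.64 on the probe set used. St13 was listed because every TCE liver was below every control liver and every TCE kidney above every control kidney. The St13 difference of -0.46 ± 0.14 did not pass in limma (adjusted p = 0.137).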

How the results depend on the processing

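The count of probe sets past the threshold in liver, 0, was 21 without the filter on low values, 339 with all 12 arrays in 1 fit, 37 at a threshold of 0.1, and 0 to 1 with single arrays left out (1 without liver TCE replicate 1). In kidney, also 0, it was 5 with no filter, 1 with the stricter filter, 26 with all 12 arrays and 1 at a threshold of 0.1. For the difference of effects, 198, it was 57 with 1 probe set per gene, 698 at a threshold of 0.1, 0 with the replicate block, 0 with the Gapdh covariate, 40 (without kidney control replicate 1) to 411 (without liver TCE replicate 3) with single arrays left out and 74 without both control arrays numbered 1. Between the tissues, 11513, it was 7308 with 1 probe set per gene, where fewer features were tested. No member probe set was called for TCE under any of these alternatives. Between the tissues the 5 calls held under each alternative; the number was 7 with median centring and 5 to 6 with single arrays left out. Same-numbered arrays of TCE and control did not deviate together (r from -0.08 to 0.03). Those of liver and kidney gave small r, all positive, from 0.01 to 0.08. Values this small cannot say whether the same numbers mark the same rat. The labels do not say it either, so the arrays were taken as independent. Each control liver did correlate best with the control kidney of its own number, while TCE liver replicate 1 did not with its TCE kidney. With the replicate block Fkbp5 (1388901_at) had an adjusted p of 0.382 in liver and 0.471 in kidney.

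Uncalled differences changed sign as follows; the cause was not tested. With the Gapdh covariate in liver the values were 0.28 and 2.91 for Nr3c1, -0.13 for Nr3c2, 0.32 for Hsd11b1, 0.31 for Tsc22d3, 0.034 for Fkbp5 (1380611_at) and -2.46 for Sgk1; in kidney 0.084 for Hsd11b1, 0.010 for Hsd11b2 and -0.56 for Sgk1; and for the difference of effects 0.11 and 2.40 for Nr3c1, 0.14 for Hsd11b1, 0.27 for Tsc22d3, -1.24 for Sgk1 and 0.025 for Tat. Quantile normalization gave -0.0021 for Nr3c2 in liver, 0.032 for Hsd11b1 in the difference of effects, and between the tissues -0.12 for Hsd11b1 and 0.091 for Fkbp5 (1380611_at). Median centring gave 0.0027 for Hsd11b2 in kidney and, between the tissues, 0.028 and 0.20 for Fkbp5. Without both control arrays numbered 1 the difference of effects was -0.78 for Sgk1 and 0.19 for Tat.

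With single arrays left out the liver ranges were -0.27 to 0.015 and -1.20 to 0.12 for Nr3c1, -0.0041 to 0.093 for Nr3c2, -0.15 to 0.012 for Hsd11b1, -0.47 to 0.17 for Tsc22d3, -0.25 to 1.02 for Sgk1 and -0.55 to 0.16 for Tat. In kidney they were -0.11 to 0.021 for Hsd11b1, -0.11 to 0.071 for Hsd11b2, -0.29 to 0.24 for Tsc22d3 and -0.28 to 0.53 for Sgk1. For the difference of effects they were -1.21 to 0.11 for Nr3c1 (1368222_at), -0.10 to 0.064 for Hsd11b1, -0.48 to 0.25 for Tsc22d3, -0.46 to 0.080 for Fkbp5 (1388901_at), -0.41 to 0.86 for Sgk1, -0.55 to 0.16 for Tat and -0.079 to 0.44 for Tdo2. Between the tissues they were -0.21 to 0.52 for Tsc22d3 and -0.39 to 0.042 for Fkbp5 (1380611_at).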

Other observations

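Markers of blood cells other than erythroid cells also separated the livers. Both neutrophil markers measured, of 3 on the array, were higher in TCE livers, with a median log2 difference of 1.15. The list summed to 8.06 to 8.38 in TCE livers and 6.73 to 7.45 in control livers, with Cxcr2 near the lowest value throughout. In kidney the same list summed to 4.79 to 5.39 after TCE and 4.61 to 5.18 in controls. Of the 5 lymphocyte markers on the array, all 5 were near the lowest value in kidney and 4 in liver, where Cd3e read 2.40 to 3.03 in TCE and 2.27 to 2.78 in control livers.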
